A study of Mus musculus with 3 samples.

Results

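Zfhx3, Prrx1, Casz1, Synpo2l, Lrrc10, Syne2, Sh3pxd2a, Cav1 and Cand2 are 9 mouse genes whose human counterparts lie at loci associated with atrial fibrillation, and their FOG2 occupancy was read from a list of FOG2 peaks of the embryonic heart. A peak was given to the protein-coding gene whose body, from the first to the last annotated base, was nearest to the peak's summit, within 100 kb. By this rule 6 of 6166 peaks fell to the 9 genes, which are 9 of 21631 protein-coding genes on the 20 chromosomes that carried peaks. Lrrc10, Zfhx3, Syne2, Casz1 and Cav1 had a summit, and Prrx1, Synpo2l, Sh3pxd2a and Cand2 had none.

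The chromatin came from ventricles of embryonic mouse hearts, taken at E12.5 (embryonic day), with about 20 ventricles in each biological replicate. All libraries are labelled as this tissue, and the labels' protocol gives the mice as Fog2flbio/flbio;Rosa26BirA/BirA, that is, homozygous for a tagged FOG2 allele and for the biotin ligase BirA at the Rosa26 locus. The genotype field of the same labels reads WT and the antibody field of the pulldowns reads FOG2, and the deposited peak names carry the word FLAG, all of which differ from a streptavidin pulldown of a tagged protein. By the protocol, which is followed here, FOG2 with its crosslinked DNA was recovered on streptavidin beads in 2 pulldown libraries, and 1 input library of the same tissue, with no antibody, was the control. No pulldown from hearts without the tagged allele was among the libraries. Signal that the beads recover without FOG2 therefore cannot be told apart from FOG2 in the peaks below. The series as a whole concerns the atrium, heart failure and atrial fibrillation, whereas the tissue profiled was ventricle. Expression was not measured, so neither the tissue label nor the activity of any gene could be checked against markers. The deposited list pooled the replicates, so no value below has a replicate spread and no difference was tested.

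FOG2, encoded by Zfpm2, is a zinc finger cofactor that reaches DNA mainly through GATA factors, GATA4 above all in heart muscle. GATA4 and the T-box factor TBX5 act together in cardiac gene programmes, and TBX5 is itself a gene of atrial rhythm. Genome-wide association studies name loci by a gene near the associated variants, so a locus gene is a candidate and not a proven cause. The 9 genes have unlike roles. Zfhx3, Prrx1 and Casz1 encode transcription factors, Synpo2l and Lrrc10 encode proteins of the contractile apparatus, Syne2 and Sh3pxd2a encode scaffold proteins, Cav1 encodes a membrane coat protein, and Cand2 encodes a regulator of ubiquitin ligases.

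The peak at Lrrc10 covered its promoter, and the sequence before the gene start is printed below. Whether the peak depended on these bases was not tested. RefSeq promoter windows (build GRCm38.p6, 250 bases before to 50 bases after a gene start) were given for 7 of the 9 genes, in 10 windows. Sh3pxd2a and Cand2 had no entry. The 250 bases before the start are printed 5′ to 3′ for Lrrc10, at chr10:117045091-117045340 on the plus strand. For contrast they are printed for Synpo2l, a gene of the same role without a peak in either of its 2 promoter windows, of which the outer is shown, at chr14:20668355-20668604 on the minus strand, and for Prrx1, likewise without a peak, at chr1:163313651-163313900 on the minus strand. Capitals mark matches to 4 spellings of the GATA motif (AGATAA, then AGATAG, as well as TGATAA, and finally TGATAG), searched on both strands, so that CTATCA is TGATAG on the other strand.
Lrrc10: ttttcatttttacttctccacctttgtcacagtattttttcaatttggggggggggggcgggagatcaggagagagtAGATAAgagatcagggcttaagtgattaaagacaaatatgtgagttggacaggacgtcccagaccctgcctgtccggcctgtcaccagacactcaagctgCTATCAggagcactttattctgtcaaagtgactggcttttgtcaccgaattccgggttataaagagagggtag
Synpo2l: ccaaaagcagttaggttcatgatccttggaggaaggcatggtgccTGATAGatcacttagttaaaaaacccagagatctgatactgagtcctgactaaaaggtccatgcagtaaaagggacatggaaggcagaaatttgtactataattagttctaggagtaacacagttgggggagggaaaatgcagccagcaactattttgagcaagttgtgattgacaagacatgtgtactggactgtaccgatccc
Prrx1: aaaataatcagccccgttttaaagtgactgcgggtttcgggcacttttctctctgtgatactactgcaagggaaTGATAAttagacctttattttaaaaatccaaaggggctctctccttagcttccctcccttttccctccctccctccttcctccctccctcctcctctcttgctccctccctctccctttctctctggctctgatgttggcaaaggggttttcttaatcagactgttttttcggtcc
No capital runs overlapped within a promoter. Motifs were searched only in the 250 bases before each start and not in the 50 bases after it. The T-box motif AGGTGT, searched in the same way, had 0 matches there in the 10 windows.

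Lrrc10 encodes a leucine-rich repeat protein of heart muscle that sits at the Z-disc and T-tubule region and is needed for normal contraction. Its gene is small, 1.43 kb on chromosome 10 (117045341 to 117046768, plus strand). The single peak spanned 117045079 to 117045396 and was 22.5-fold over control, with a −log10 q of 45.8. It was 318 bp wide and covered all 300 bases of the promoter window, with its summit 108 bp upstream of the gene start. By fold it ranked 141 in the list, above 97.7% of all peaks. The summit rested on 36 pulldown fragments (exact 95% Poisson interval 25.2 to 49.8) against a control level of 0.641, close to the lowest level in the list, 0.588. Fragment numbers were computed back from the authors' fold and −log10 p values, and their intervals cover counting error only.

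Few genes had a FOG2 summit in a promoter window. The windows are only 300 bases long, and the share below was not scaled to the space they cover. Of 17274 protein-coding genes in the promoter table, 49 (0.284%) had a summit inside a 300-base window, and Lrrc10 stood 5th among them by fold. The other 9 windows of the 7 genes with an entry neither held a summit nor overlapped a peak. In the Lrrc10 sequence printed above, AGATAA begins 173 bases before the gene start and the reversed TGATAG begins 73 bases before it. Their centres lay 62.5 bp and 37.5 bp from the summit, on opposite sides. At least 1 match to the 4 GATA spellings was found in 23.6% of all 21045 protein-coding promoter windows of 250 bases, and at least 2 matches in 5.52%. AGGTGT was found in 11.1%. A single match is thus common. Without a peak, Prrx1 had 1 match in its window, Synpo2l had 1 in each of its 2 windows, and Cav1 had 1 in 1 of its 2 windows. The match in the Synpo2l window that is not printed was a reversed TGATAG beginning 72 bases before that start, nearly the place of the same letters at Lrrc10.

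A strong second peak lay beside Lrrc10. Its summit was 21.7 kb from the Lrrc10 body, inside Best3, a gene of the bestrophin chloride channel family, and it was assigned there. It spanned 117023490 to 117023847 at 17.6-fold, with 38 fragments (26.9 to 52.2). The Lrrc10 and Best3 summits were 21.5 kb apart, and their fragment intervals overlapped although the folds differed, since the control level at Best3 was 1.22. Between them lies no other summit. Cct2, 4.23 kb from Lrrc10 and its nearest protein-coding neighbour, had no summit assigned. Counting genes of any biotype, the nearest other gene to the Lrrc10 summit was Gm10747, a long noncoding RNA gene, 0.548 kb away.

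**Figure D1:**
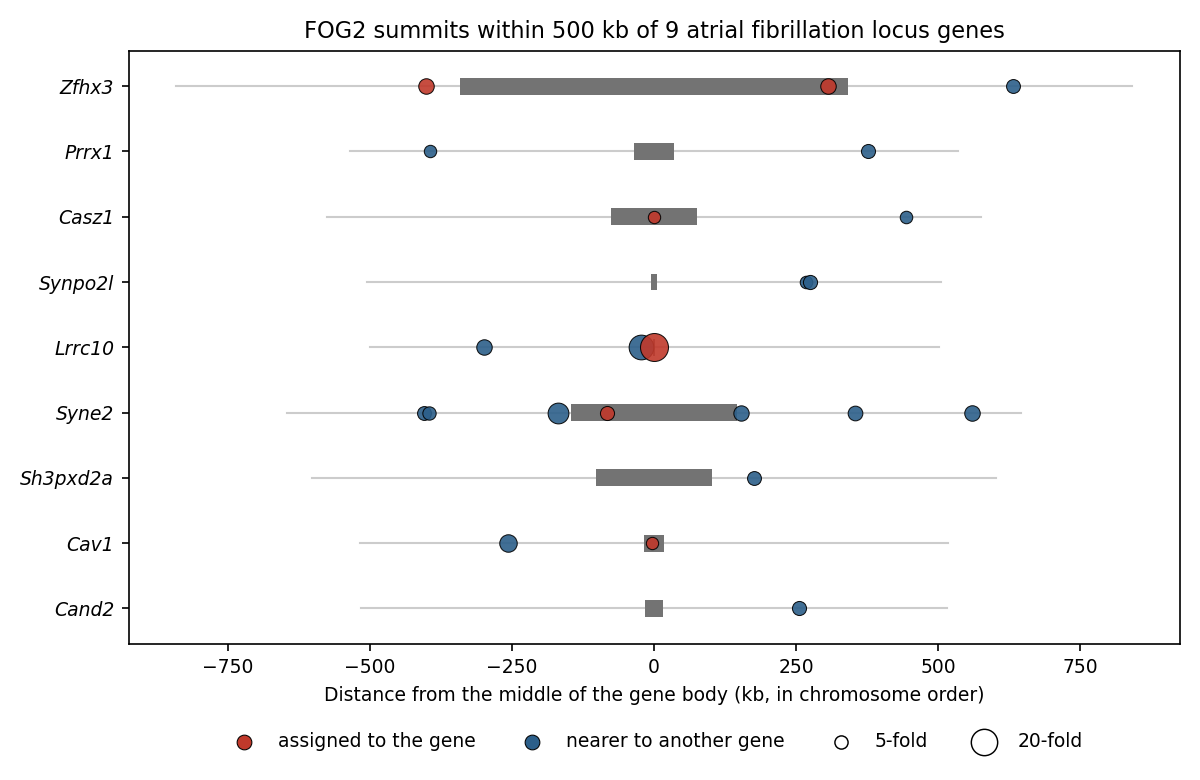
FOG2 summits (circles, area in proportion to fold) within 500 kb of each of the 9 gene bodies (grey bars, to scale), by distance in kb from the middle of the gene body. Red circles are assigned to the gene and blue circles are nearer to another gene. Lrrc10 has the largest circle, at 22.5-fold, and Prrx1, Synpo2l, Sh3pxd2a and Cand2 have only blue circles.

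Synpo2l encodes a Z-disc protein of heart and skeletal muscle, related to synaptopodin. It occupies 9.41 kb on chromosome 14 (20658945 to 20668354). No summit was assigned to it, and the closest lay 262.8 kb away, inside Vcl, the gene of the adhesion protein vinculin. That peak was 4.51-fold, with 9 fragments (4.12 to 17.1), and a second one in Vcl was 5.76-fold at 270.2 kb. Synpo2l lies 2.41 kb from Myoz1, which encodes another Z-disc protein and belongs to the same human locus, and Myoz1 also had no summit. The territory of Synpo2l, meaning the stretch of genome nearer to it than to any other protein-coding gene within 100 kb, was 13.58 kb, almost that of Lrrc10 at 13.37 kb. At the mean density of summits over all territories, 2.52 per Mb, these would hold 0.0342 and 0.0337 summits. The 2 contractile genes thus had nearly equal space around them and differed in the peak.

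The transcription factor genes had weaker peaks or none. Zfhx3 encodes a very large factor with homeodomains and zinc fingers, and its body, counting predicted transcripts, spans 682.3 kb on chromosome 8 (108279311 to 108961636). It had 2 summits. The first, at 108926205 to 108926387, lay inside the gene, 94.8% of the way through the body and 211.6 kb downstream of the gene start of the promoter table. The second, at 108218561 to 108218813, lay 60.6 kb outside the body and 496.0 kb upstream of that start. Both were 6.93-fold with a −log10 q of 6.69, and both rested on 10 fragments (4.80 to 18.4) over a control at the lowest level of the list. This same fold stood at 116 peaks of the list. The territory of Zfhx3, 882.3 kb, would hold 2.22 summits at the mean density, against the 2 observed. Both numbers rest on the body with predicted transcripts, and a body beginning at the start of the promoter table was not tried. No other protein-coding gene lay within 416.2 kb of Zfhx3.

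Casz1 encodes a zinc finger factor needed for growth of the embryonic heart muscle. Its body spans 150.5 kb on chromosome 4 (148804366 to 148954893). The single peak spanned 148879315 to 148879509 at 4.37-fold, with its summit 49.8% of the way through the body. The promoter table gives 2 starts for Casz1, and the summit lay 9.96 kb upstream of the inner start. It rested on 14 fragments (7.65 to 23.5), more than at Zfhx3, but the control level was 2.43, at or above which stood only 2.79% of all peaks. Its fold exceeded that of only 5.32% of the list.

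Prrx1 encodes a paired-type homeobox factor of embryonic mesenchyme. Its body spans 70.0 kb on chromosome 1 (163245119 to 163315145). No summit was assigned to it. The closest, 340.7 kb away, was 5.67-fold with 8 fragments and was assigned to Mettl11b, and the only other one within 500 kb was 4.41-fold with 6 fragments, inside Fmo2. Gorab, its nearest protein-coding neighbour at 69.8 kb, had no summit either. Of the 9 genes Prrx1 was the farthest from any summit.

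Syne2 encodes nesprin-2, a giant spectrin-repeat protein that links the nuclear envelope to the cytoskeleton. Its body spans 292.6 kb on chromosome 12 (75818318 to 76110928). The assigned peak, at 75881737 to 75881906, was 5.70-fold with 10 fragments (4.80 to 18.4) and lay inside the gene, 63.5 kb downstream of the start. Peaks assigned to other genes flanked it on both sides, with fragment intervals that overlapped that of the assigned peak. On the side of the gene start a 12.4-fold peak with 19 fragments (11.4 to 29.7) lay 23.6 kb outside Syne2, inside the predicted gene Gm40447, which overlaps Syne2. On the other side a 6.77-fold peak with 14 fragments (7.65 to 23.5) lay 6.80 kb outside Syne2 and 2.69 kb from Esr2, the oestrogen receptor beta gene, to which it was assigned. With every summit within 100 kb counted, Syne2 would have 3 summits in place of 1. It also had the most summits within 500 kb, 7, where the mean density over the genome, 2.37 per Mb, would place 3.07.

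Sh3pxd2a encodes TKS5, an adaptor protein of podosomes, the small actin-based structures through which cells degrade matrix. Its body spans 204.4 kb on chromosome 19 (47260174 to 47464612) and had no summit. The closest lay 74.2 kb away at 5.54-fold with 12 fragments (6.20 to 21.0). That distance is within the 100 kb limit, but the summit is inside Stn1, so Stn1 received it. No other summit lay within 500 kb of Sh3pxd2a, where the mean density would place 2.86. Neurl1a, a locus gene 0.733 kb from Sh3pxd2a, had no summit.

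Cav1 encodes caveolin-1, which coats the membrane pits called caveolae and is abundant in endothelium, smooth muscle and other non-myocyte cells. Its body spans 35.0 kb on chromosome 6 (17306335 to 17341328). The single peak, at 17319020 to 17319189, was 4.35-fold with a −log10 q of 2.24, and its summit lay 11.5 kb downstream of the nearer of 2 gene starts. It rested on 6 fragments (2.20 to 13.1), the fewest of the 6 peaks, and 2.45% of all summits rested on 6 or fewer. Its neighbour Cav2, 17.2 kb away, had no summit. The next summit on that chromosome lay 253.4 kb away, inside Tes, at 8.80-fold.

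Cand2 encodes a muscle-enriched member of the CAND family, which exchanges substrate receptors on cullin ubiquitin ligases. Its body spans 31.0 kb on chromosome 6 (115774557 to 115805555) and overlaps Rpl32. It had no summit, and the only one within 500 kb lay 238.6 kb away inside Tmcc1, at 5.70-fold with 9 fragments (4.12 to 17.1).

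**Figure D2:**
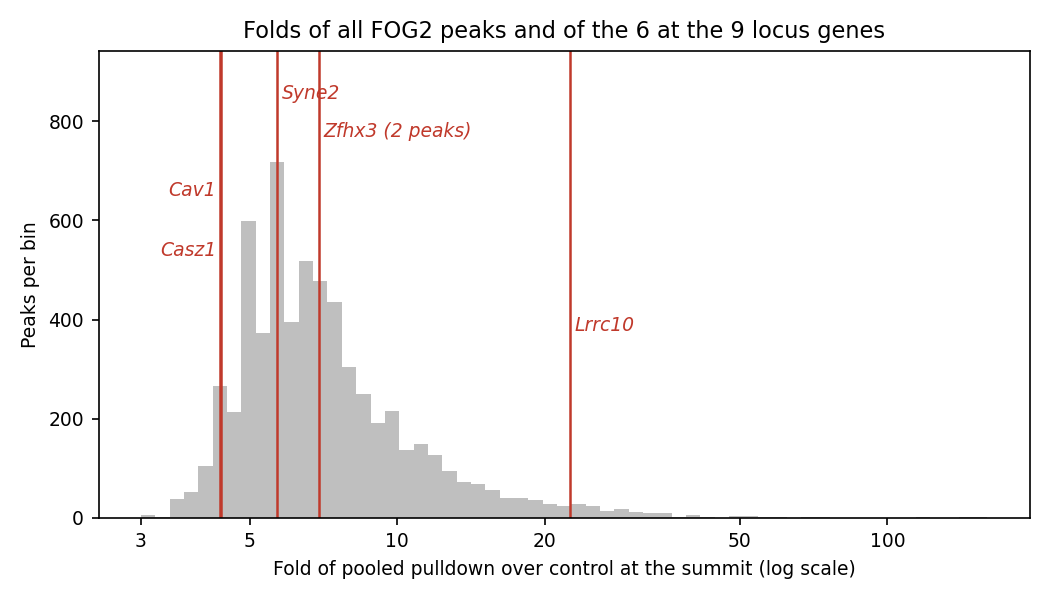
Histogram of the fold over control of all 6166 FOG2 peaks (log scale), with red lines at the folds of the 6 peaks of the 9 locus genes. Lrrc10 lies in the upper tail at 22.5-fold, and the other 5 lie between 4.35- and 6.93-fold, around and below the median of 6.39.

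Among the 6 peaks, Lrrc10 stood apart in fragment number, by which the other 5 could not be ordered. The fragment interval at Lrrc10 began at 25.2, above the upper bound of each of the others, of which the highest was 23.5 at Casz1. The intervals at Zfhx3, Syne2, Casz1 and Cav1 overlapped one another, so fragment numbers could not rank them. These intervals leave out the control level. By −log10 q these peaks ran from 6.69 at both Zfhx3 peaks to 2.24 at Cav1. Both Syne2 and Cav1 peaks were 170 bp wide, the smallest width in the list, which 13.2% of all peaks shared. Of the 6 summits 4 lay inside a gene and more than 1 kb away from both of its ends (66.7%, exact binomial 95% interval 22.3 to 95.7), against 58.0% of all 4702 summits that had a gene within 100 kb. With 6 summits this share could not be told from that of the list.

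**Figure D3:**
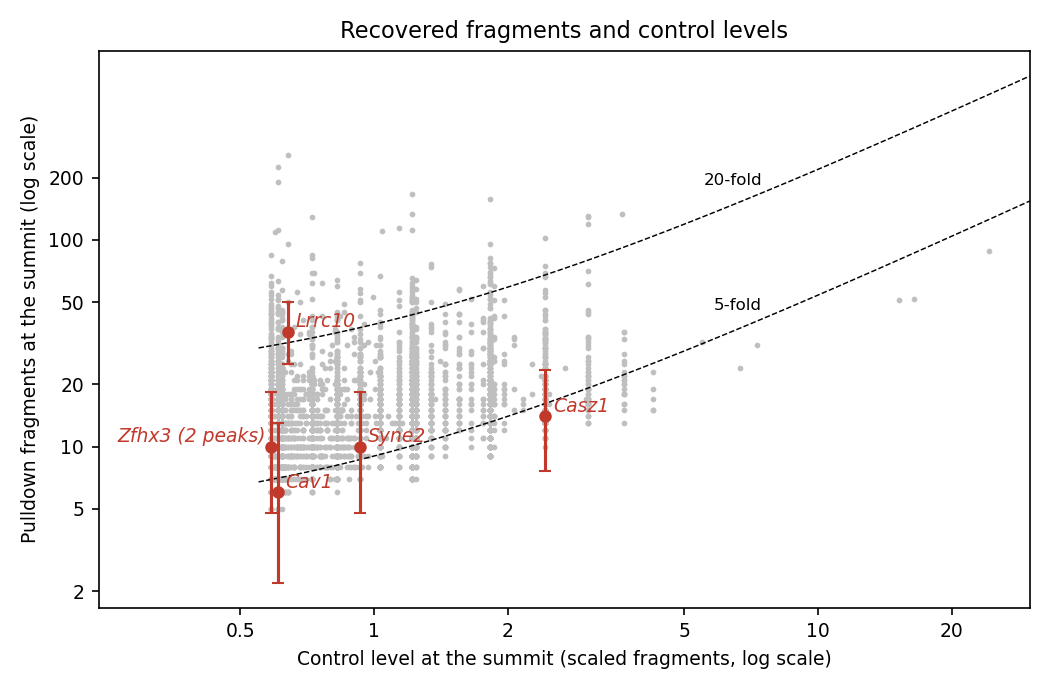
Pulldown fragments recovered at each summit against the control level there (both log scales), for all peaks (grey) and the 6 peaks of the 9 genes (red, bars are exact 95% Poisson intervals, the 2 Zfhx3 peaks coincide). Dashed lines mark 5-fold and 20-fold. The Lrrc10 interval lies above all the others, and Casz1 stands to the right, at a control level of 2.43.

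A summit was assigned to 5 of the 9 genes (55.6%), where 13.6% of all protein-coding genes had 1 or more. The territories of 6 of the 9 genes were above the mean over all protein-coding genes, 86.3 kb, and those of Lrrc10, Synpo2l and Cand2 were below it. Zfhx3 alone, with predicted transcripts counted in its body, held 44.8% of the territory of the 9 genes. By territory alone the 9 genes would hold 4.96 summits, against the 6 observed. The count of summits is thus close to what the space around the genes would hold. The count of genes depended on the weaker peaks, with 3 of 9 genes left at a fold of at least 5 (11.8% of all protein-coding genes) and 2 of 9 both at a −log10 q of 5 or more (10.0%) and in the stronger 50% of peaks (8.01%). Only Lrrc10 of the 9 reached 10-fold, a level reached at 3.01% of all protein-coding genes. The median of the strongest folds was 5.70 over the 5 genes with a summit, and 6.93 over the 2939 protein-coding genes with 1.

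The other atrial fibrillation locus genes listed here had more summits for their territory. In a list of 67 such genes, which include transcription factors, ion channels and sarcomere genes of the heart, 39 (58.2%) had a summit, near the 55.6% of the 9 genes. The share over all protein-coding genes was 13.6%. The 67 genes held 112 summits where their territories would hold 38.6. The list was written from general knowledge and overlaps a list used earlier on these data. The surplus thus describes the genes chosen and is no test of locus genes at large. The 8 with the strongest peaks were Sox5, a transcription factor gene (34.1-fold, 56 fragments), Nkx2-5, a core cardiac homeobox gene (22.1-fold, 44 fragments), Tbx3, a T-box gene of the conduction system (19.7-fold, 37 fragments), Slc35f1 (17.7-fold, 28 fragments), the calcium release channel gene Ryr2 (17.6-fold, 44 fragments), the SRF coactivator gene Myocd (17.3-fold, 36 fragments), the splicing factor gene Rbm20 (16.7-fold, 40 fragments) and the sodium channel gene Scn10a (14.0-fold, 30 fragments). By fold the peak at Lrrc10 was above all of these but Sox5, yet its fragment interval overlapped those of all 8, among them Nkx2-5 (32.0 to 59.1). At these 8 genes none of the strongest peaks lay in the promoter. Of the 67 genes, Usp3 and Myh6 had a summit in a promoter window, at 5.41- and 4.51-fold. Over all protein-coding genes in the promoter table the share with such a summit was 0.284%. The difference between the 9 genes and the 67 was not tested.

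**Figure D4:**
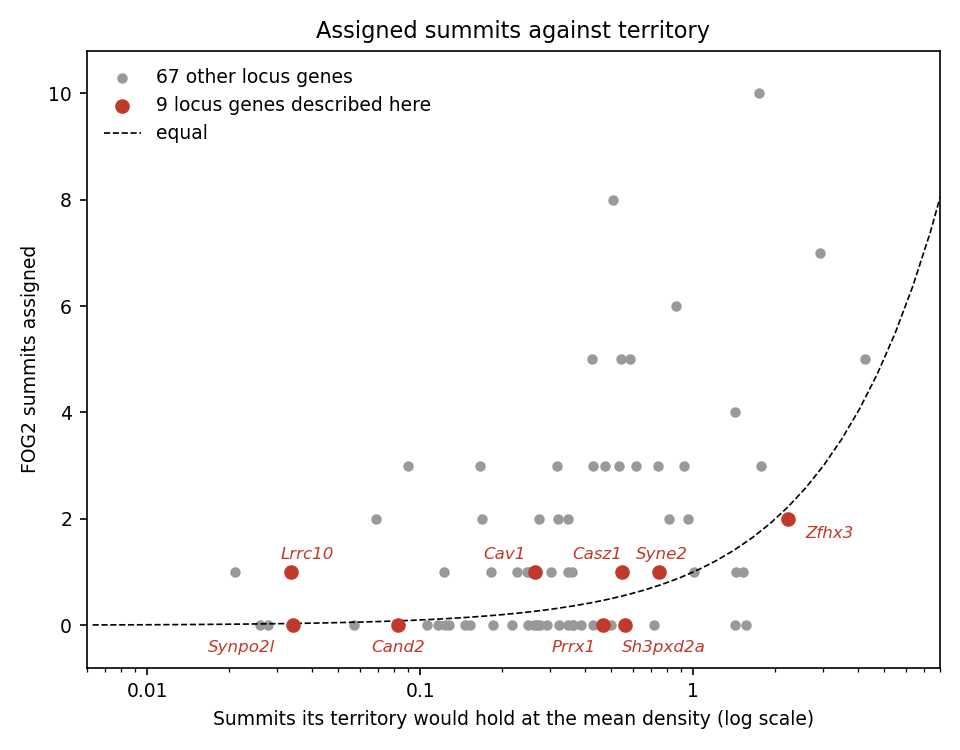
Summits assigned to each gene against the number its territory would hold at the mean density (log scale), for the 9 genes (red, named) and 67 other locus genes (grey). The dashed line marks equality. Lrrc10 has 1 summit where its territory would hold 0.0337, Zfhx3 has 2 where it would hold 2.22, and many grey points lie far above the line.

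Relatives and partners of the 9 proteins were looked up in the same list, 59 genes in all, of which 58 were matched. A summit was assigned to 10 (17.2%), where the share over all protein-coding genes was 13.6%. They held 27 summits where their territories would hold 15.4. Without the genes that are also in the list of 67, 9 of 55 (16.4%) had a summit, with 24 summits against 14.3. None of the 4 relatives of Zfhx3 or of the 6 homeobox relatives of Prrx1 had one. For Casz1 it was 1 of 5, namely Tbx20, a cardiac T-box gene, at 6.32-fold and 74.2 kb outside the gene. In the caveolar list of Cav1 it was 1 of 8, namely Cavin2, a caveolar coat gene, with 2 summits of 3.71- and 4.51-fold.

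For Synpo2l and Lrrc10 the counts were higher. There were 8 summits against 1.44 by territory in the Synpo2l list and 10 against 2.67 in the Lrrc10 list, which share Actn2. Like all the lists of relatives and partners, both were chosen with earlier results of these data known. The surplus thus describes the genes chosen and is no test of relatives or partners at large. In the Lrrc10 list the channel gene Cacna1c gave 4 of the summits, where its territory would hold 1.57. Among all protein-coding genes 13.6% had a summit. Of 8 relatives and partners of Synpo2l, 3 had a summit. They were Synpo2, its closest relative (1 summit, 4.95-fold, 0.655 kb outside the gene), the alpha-actinin gene Actn2 (3 summits, strongest 9.20-fold) and Ldb3, the gene of the Z-disc protein cypher (4 summits, strongest 5.86-fold). Of the 5 listed for Lrrc10, 3 had a summit, namely the cardiac calcium channel gene Cacna1c (4 summits, strongest 9.80-fold), Actn2 again, and the titin gene Ttn (3 summits, strongest 5.86-fold). All summits at Cacna1c, Actn2, Ldb3 and Ttn lay inside the gene bodies. Synpo2l itself lacked a summit, as did 5 of its 8 relatives and partners, and its small territory would hold only 0.0342 summits.

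For the remaining genes a single relative each had summits. Of 8 genes of the nuclear envelope linked with Syne2, only its paralogue Syne1 had any, 3 in the gene body with the strongest at 7.22-fold. The weakest of them, at 3.89-fold, lay in a promoter window of Syne1. Of 7 matched relatives and partners of Sh3pxd2a, only Adam12, a metalloprotease gene whose product binds TKS5, had any, 3 with the strongest at 6.93-fold. Of 8 relatives and partners of Cand2, only its paralogue Cand1 had any, 3 outside the gene body, with the strongest at 7.46-fold and 99.7 kb away. The gene nearest to a site need not be the gene it regulates, and none of these counts is tested.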

How the data were processed

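The deposited file is the authors' single peak list for the pooled FOG2 pulldown, filtered against blacklisted regions, per the file's name. Per the submitters' processing notes, Bowtie2 2.3.2, SAMtools 1.5, Picard and MACS2 2.1.1 were used with mm10. Their settings were not given in the sources used here. Folds, as deposited, are linear ratios over control, the deposited −log10 p and −log10 q are the caller's for that summit, and the deposited display score was not used. Library depths are unknown. Whole fragment numbers were recovered from fold and −log10 p, taking the fold with 1 added on both sides, and 100% of peaks matched within 0.001 (another whole number also matched in 83). Genes came from RefSeq (GRCm38.p6, the mm10 assembly), promoters from RefSeq. Tied genes each received a summit (22 summits, none at the 9 genes). Territories were measured in 10 bp steps. The procedure was tested on simulated data. Python 3.11.15, pandas 2.3.3 and SciPy 1.17.1 were used.

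The 9 genes and the gene lists were chosen with earlier results of these data known. Named were all 9 genes with every peak, the 8 of highest fold among the other locus genes, and every relative or partner with a summit. Myoz1, Gorab, Neurl1a, Cav2, Cct2, Best3, Usp3 and Myh6 were named after their values were seen, as neighbours or for a promoter summit. So were Gm10747, Vcl, Mettl11b, Fmo2, Gm40447, Esr2, Stn1, Tes, Tmcc1, Pgk1, Hspa1l, Mylk3 and Aldoa.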

Additional observations from a re-analysis of the deposited data

How the results depend on the processing

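The number of the 9 genes with a summit, 5, fell to 2 (Lrrc10 and Zfhx3), as given above with the shares over all genes, when peaks under a −log10 q of 5 were left out and for the stronger 50% of peaks, and to 3 for a fold of at least 5. The 6 summits became 3 at that −log10 q of 5 or more, which 66.4% of all peaks reached, and in the stronger 50%, and 10 with every summit within 100 kb counted. Limits of 10, 20 or 500 kb, genes of any biotype, the nearest gene end and the peak interval left 5 genes with a summit. Over all protein-coding genes the shares there were 10.0%, 10.9%, 15.2%, 10.5%, 13.0% and 13.6%, in that order. With every summit within 100 kb counted, 6 of the 9 genes had a summit, as did 33.3% of all protein-coding genes. At the nearest gene end the strongest peak of Syne2 became the 12.4-fold one. Of the 67 other locus genes, 30 had a summit in the stronger 50% of peaks, where 8.01% of all protein-coding genes did. With every summit within 100 kb counted it was 46, against 33.3%, and the other settings lay between. Gene ends of 5 kb moved no share of the 6 summits. Lrrc10 kept its 22.5-fold peak in all 10 of these peak and assignment settings. That peak had a −log10 q of 45.8 and lay 0.108 kb from the gene body. The cut-offs and distance limits used could therefore not have removed it. At 6 to 14 fragments, the other peaks have wide counting error. Leaving out a replicate was not run, because the list is pooled. No paired analysis was possible because the list holds no value per replicate.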

Other observations

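The promoter windows that held a FOG2 summit, 51 in all, carried the GATA spellings more often than promoters at large, as a description without a test. Only the 250 bases before each start were searched, although a summit could also lie in the 50 bases after it. At least 1 match to the 4 spellings stood in 28 of the 51 (54.9%), against 23.6% of all windows, and at least 2 matches, as at Lrrc10, stood in 12 (23.5%), against 5.52%. AGGTGT stood in 2 (3.92%), against 11.1%. The genes with a stronger promoter summit than Lrrc10 were Pgk1 (157.8-fold, the highest fold of the whole list), Hspa1l (32.7-fold), Mylk3 (25.1-fold) and Aldoa (23.7-fold). The 9 genes include 1 such promoter, so they say nothing of this pattern themselves.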
